A study of Mus musculus with 12 samples.

Results

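The β-catenin core of canonical Wnt signaling was followed at the RNA level in mouse cortex with and without GDE2, a surface enzyme encoded by *Gdpd5*. The set holds 10 of the 36047 genes listed, taken by gene name: β-catenin (*Ctnnb1*), the scaffolds of its destruction complex (*Apc*, *Axin1*, *Axin2*), the kinases that mark it for degradation (*Gsk3a*, *Gsk3b*, *Csnk1a1*) and DNA-binding partners of β-catenin (*Tcf7l1*, *Tcf7l2*, *Lef1*). The members have 89 of the 116816 transcripts that are assigned to a gene. Polyadenylated RNA was sequenced from 3 WT and 3 *Gde2*KO cortices at 4 months and from 3 WT and 3 *Gde2*KO cortices at 19 months, 12 libraries in all. The 4-month comparison was made to find pathways that depend on GDE2 and bear on nucleocytoplasmic transport and on where TDP-43 resides, and the 19-month libraries served a search for splicing errors. *Gde2*KO mice lacked *Gde2* in every cell from conception, and mice of both sexes were used, with no sex given per library.

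In unstimulated cells, APC and the AXIN proteins hold β-catenin next to casein kinase 1α and GSK3, which phosphorylate it so that it is ubiquitinated and destroyed. Wnt binding at the membrane inactivates this complex, and stabilized β-catenin enters the nucleus and binds TCF/LEF factors at target genes, of which *Axin2* is the classic feedback target. These steps act on protein stability and localization, which RNA levels do not measure.

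The phosphorylated residues lie in exon 3 of *Ctnnb1*, which is shown because it is the part of β-catenin on which the kinases of this set act. Exon 3 of Ctnnb1-201 covers 228 bases at chr9:120950522-120950749 (GRCm38, plus strand), is coding throughout, and begins within codon 5. Capitals mark codons 33, 37, 41 and 45, the serines and the threonine that are phosphorylated.
Ctnnb1 exon 3: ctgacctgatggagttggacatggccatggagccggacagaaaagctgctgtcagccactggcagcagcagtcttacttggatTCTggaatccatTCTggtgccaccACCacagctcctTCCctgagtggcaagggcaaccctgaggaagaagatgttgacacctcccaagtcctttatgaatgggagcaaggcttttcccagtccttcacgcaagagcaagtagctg

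A pair of transcript models that begin inside an intron and run to the 3′ end of the gene took part in the differences in transcript share described below for *Axin2* and *Ctnnb1*. Their first bases are shown because they hold the stretch that the full-length transcript lacks. Axin2-203, a noncoding model of 4 exons and 2045 bases, shares 2010 bases with the coding Axin2-201 and has 35 of its own, at chr11:108943621-108943655 (GRCm38, plus strand). Ctnnb1-215, annotated as a retained intron, is a single exon of 1292 bases, of which 1199 lie in the last exon of Ctnnb1-201 and 93 in the intron before it, at chr9:120959216-120959308. Capitals mark the bases outside the full-length transcript, and the first line is the whole first exon of Axin2-203.
Axin2-203 start: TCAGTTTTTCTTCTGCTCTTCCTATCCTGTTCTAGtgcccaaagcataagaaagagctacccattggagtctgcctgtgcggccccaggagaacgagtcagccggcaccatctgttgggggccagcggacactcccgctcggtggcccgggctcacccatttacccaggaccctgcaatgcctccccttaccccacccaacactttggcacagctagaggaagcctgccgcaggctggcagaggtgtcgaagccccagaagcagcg
Ctnnb1-215 start: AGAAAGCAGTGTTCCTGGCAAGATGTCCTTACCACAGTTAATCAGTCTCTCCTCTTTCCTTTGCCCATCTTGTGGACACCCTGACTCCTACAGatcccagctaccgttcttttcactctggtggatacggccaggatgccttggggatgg

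Several libraries stood apart before any member was compared. At 4 months the 6 libraries held 46432108 to 59726331 estimated reads, whereas at 19 months they held 3707941 (*Gde2*KO library A) to 44602117, with 6734479 in WT library A. A normalized count is an estimated read count divided by the size factor of its library, so 1 read equaled 8.29 normalized counts in *Gde2*KO library A and 4.66 in WT library A, but 0.702 to 0.847 in the other 19-month libraries. In 4-month WT replicates 1 and 2, the mean log2 value of 11 hippocampal markers, centered on the 6 libraries of that age, was 2.0 and 1.9, against −1.33 in WT replicate 3 and −1.26 to −0.52 in the *Gde2*KO libraries. The same replicates were low for 10 striatal markers (−2.14 and −2.35, the other 4-month libraries 0.35 to 1.80) and for 9 cortical layer markers (−1.11 and −0.76, the others 0.42 to 0.53). None of these markers was at 0 at 4 months, and the summed normalized counts of the hippocampal list ranged from 7891 to 25677 in WT and from 8017 to 10157 in *Gde2*KO. Member differences between genotypes in normalized counts are given with and without these libraries, and transcript shares mostly with all libraries only. Across all 19035 genes tested at 4 months, the median log2 difference was 0.11 toward *Gde2*KO. It was −0.01 after rescaling the libraries by median ratios, and 0.04 without *Gde2*KO replicate 3. That replicate had the highest total of normalized counts at 4 months, 41229100 against 31917400 to 35949200 in the others. Its total TPM was also the highest, 1472300 against 1003570 to 1103970, so 4-month values in counts and TPM carry this limit. At 19 months the median log2 difference was −0.02.

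**Figure D1:**
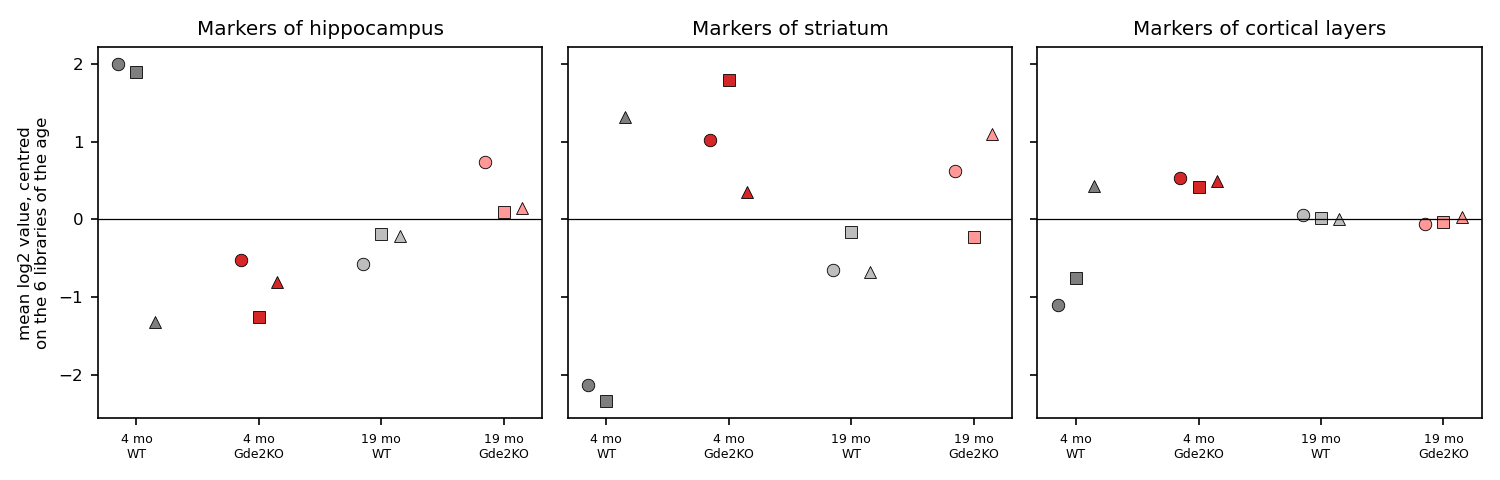
Mean log2 value of marker lists of hippocampus, striatum and cortical layers (y axis, centered on the 6 libraries of an age) in each library of the 4 groups (x axis); circle, square and triangle are replicates 1, 2 and 3 or libraries A, B and C. 4-month WT replicates 1 and 2 lie at 2.0 and 1.9 for hippocampus and at −2.14 and −2.35 for striatum, apart from the other 4-month libraries.

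*Gdpd5*, the gene removed, was checked first. Its normalized counts were 684, 702 and 1199 in 4-month WT against 417, 585 and 403 in *Gde2*KO, and 1065, 1129 and 952 in 19-month WT against 441, 456 and 560 in *Gde2*KO. In normalized counts the groups did not overlap at either age, whereas in TPM they overlapped at 4 months (12.3, 12.7 and 24.4 in WT, 9.34, 14.9 and 8.87 in *Gde2*KO; exact permutation p = 0.3, two-sided). The log2 difference in normalized counts was −0.85 ± 0.25 (SE) at 4 months (adjusted p = 0.463) and −1.11 ± 0.12 at 19 months (adjusted p = 0.0111, limma with Benjamini-Hochberg adjustment over all genes tested). Transcripts were lower but not at 0 in the libraries labelled *Gde2*KO, with 53.1 to 851 estimated reads.

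Members spanned a wide range of abundance. Compared per length, in TPM, the order in 4-month WT was *Ctnnb1* (314 ± 59.5, SD, n = 3), *Csnk1a1* (207 ± 39.6), *Gsk3a* (167 ± 4.63), *Apc* (70.9 ± 3.53), *Gsk3b* (55.3 ± 5.0), *Axin1* (16.2 ± 3.04), *Axin2* (12.8 ± 2.27), *Tcf7l2* (3.54 ± 0.39), *Lef1* (2.70 ± 0.52) and *Tcf7l1* (2.56 ± 0.44). The ranges of the 3 libraries overlapped between *Csnk1a1* and *Gsk3a*, between *Axin1* and *Axin2*, and between *Lef1* and *Tcf7l1*. *Ctnnb1* held the first place in all 4 groups, followed by *Gsk3a* and *Csnk1a1*, then *Apc* and *Gsk3b*, and the TCF/LEF genes were last. At 19 months *Gsk3a* stood above *Csnk1a1* without overlap in both genotypes (202 ± 8.76 against 153 ± 7.90 TPM in WT, 201 ± 8.27 against 169 ± 21.4 in *Gde2*KO). In *Gde2*KO the lowest *Gsk3a* and the highest *Csnk1a1* value nearly met (192.8 and 192.4), both in library A, the library of lowest depth.

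None of the 10 members passed the call for a difference between *Gde2*KO and WT at either age, which was an adjusted p under 0.1 with a log2 difference beyond 0.72. In all, 0.126% of 19035 genes passed it at 4 months and 0.0969% of 18583 at 19 months. At an unadjusted p under 0.05, limma gave 1 of 10 members at 4 months (*Axin2*) beside 10.6% of all genes, and 1 of 10 at 19 months (*Apc*) beside 6.91%. All 10 members passed the filter on low values at both ages. The median log2 difference of the members was 0.07 at 4 months with 6 of 10 above 0, beside 0.11 and 63.2% of all genes, and 0.08 at 19 months with 7 of 10 above 0, beside −0.02 and 44.6%. In bulk tissue, fewer cells that express a gene and less RNA per cell cannot be told apart.

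**Figure D2:**
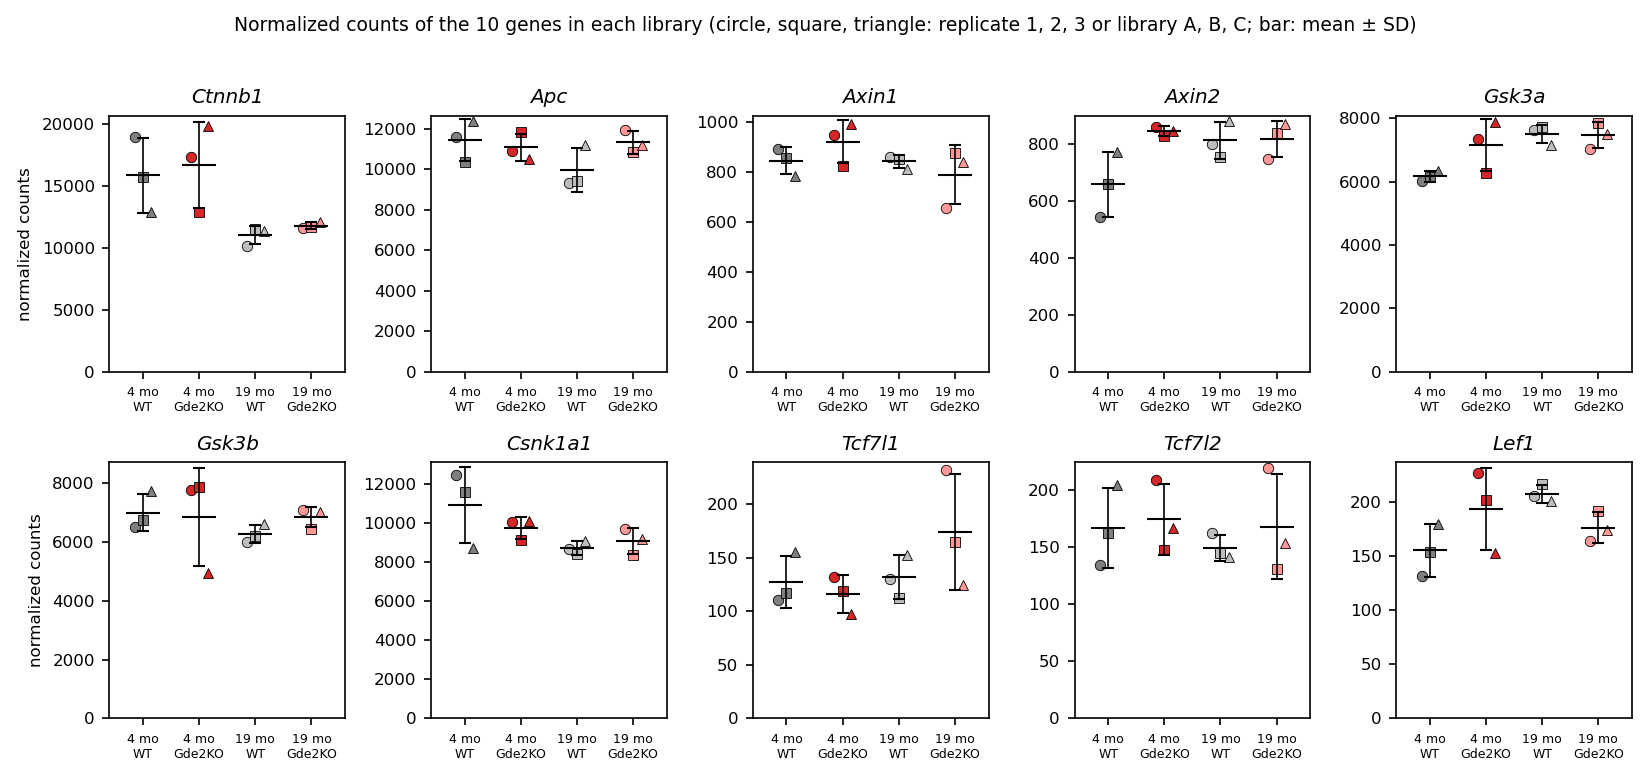
Normalized counts (y axis, from 0) of the 10 genes in each library of the 4 groups (x axis); symbols are the 3 libraries of a group, horizontal bars the mean and whiskers the SD. *Axin2* does not overlap between genotypes at 4 months (544 to 772 in WT, 828 to 861 in *Gde2*KO), and *Ctnnb1* and *Lef1* do not overlap at 19 months.

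β-catenin is both the transcriptional effector of the pathway and a component of adherens junctions. *Ctnnb1* (chr9:120929216-120960507, plus strand) had 18938, 15682 and 12865 normalized counts in 4-month WT and 17286, 12891 and 19780 in *Gde2*KO. The groups overlapped across their whole width, with a log2 difference of 0.07 ± 0.21 (SE; adjusted p = 0.881). Without WT replicates 1 and 2, the difference was 0.35. At 19 months the values were 10152, 11508 and 11332 in WT and 11611, 11627 and 12079 in *Gde2*KO, which did not overlap, and the difference was 0.10 ± 0.06 (adjusted p = 0.734; exact permutation p = 0.1, two-sided, the smallest that 3 against 3 can give). At that age, 5.85% of all genes were higher in *Gde2*KO without overlap. In TPM the 19-month groups did overlap and the sign turned, at 236, 237 and 221 in WT and 220, 219 and 224 in *Gde2*KO, a difference of −0.06. Over both genotypes, *Ctnnb1* was lower at 19 than at 4 months by −0.49 ± 0.11 (adjusted p = 0.00624), short of the fold-change limit.

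TPM weighs each transcript by its length, so it also moves with the share of each transcript in its gene. Among 15 transcripts, Ctnnb1-201, the full-length coding form, and Ctnnb1-215, the 3′-end model, were the only ones with a mean share of 5% or more. Ctnnb1-215 held 26.2, 22.1 and 23.8% of the gene's TPM in 4-month WT and 33, 24.3 and 42.4% in *Gde2*KO. At 19 months it held 37.1, 28.0 and 23.8% in WT and 16.4, 18.0 and 17.2% in *Gde2*KO, a difference of −12.4 points without overlap (exact permutation p = 0.1). Transcripts compared here and below include those of largest shift in their gene, a choice that favors groups without overlap. How many of all transcripts had shares without overlap was not counted. Ctnnb1-201 moved the other way, from 53.1, 64.1 and 70.5% in 19-month WT to 77.0, 74.3 and 75.8% in *Gde2*KO. That shift of 13.1 points ran from 8.38 to 17.1 with 1 library left out. In TPM, Ctnnb1-201 itself was 125 to 156 in 19-month WT and 163 to 170 in *Gde2*KO, and 179 to 260 against 179 to 229 at 4 months. The test of transcript usage over the whole gene did not pass at 4 months (adjusted p = 0.542) or 19 months (adjusted p = 0.979, limma diffSplice). Transcripts that hold exon 3, with the phosphorylated residues shown above, made up 71.4 ± 1.33% of *Ctnnb1* TPM in 4-month WT, 63.6 ± 8.40% in *Gde2*KO, 64.4 ± 9.08% in 19-month WT and 78.3 ± 1.97% in *Gde2*KO (SD, n = 3). Once Ctnnb1-215 was set aside they made up 94.0 ± 1.5, 95.3 ± 1.09, 91.2 ± 4.21 and 94.5 ± 1.43% of the rest, and the groups overlapped.

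*Axin2* encodes the feedback scaffold. Its normalized counts (chr11:108920349-108950783, plus strand) were 544, 660 and 772 in WT and 861, 828 and 848 in *Gde2*KO. All 3 *Gde2*KO libraries lay above all 3 WT libraries, in counts and in TPM (10.2, 13.7 and 14.4 against 15.7, 17.2 and 15.9), as did 11.1% of all genes in counts. The log2 difference was 0.37 ± 0.16 (SE; unadjusted p = 0.0439, adjusted p = 0.463; exact permutation p = 0.1). It was 0.25 after median-ratio rescaling and 0.13 without WT replicates 1 and 2, the libraries of high hippocampal markers, which were the lowest for *Axin2*; the part of these markers in the difference was not tested. At 19 months the values were 801, 754 and 883 in WT and 746, 838 and 870 in *Gde2*KO, with a difference of 0.01 ± 0.09 (adjusted p = 0.986).

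*Axin2* was also the member called for transcript usage at 4 months, where a call needed an adjusted p under 0.1 and a transcript whose share shifted by more than 10 points, and 0.997% of 12235 genes had both. Axin2-203, the noncoding 3′-end model, held 10.9, 4.36 and 7.63% of *Axin2* TPM in WT and 16.6, 23.5 and 26.6% in *Gde2*KO, a rise of 14.7 points (adjusted p = 0.00292). These shares rested on 52.4, 33.6 and 62.5 estimated reads in WT and 147, 200 and 223 in *Gde2*KO. Without WT replicates 1 and 2 the shift was 14.6 points and no longer passed (adjusted p = 0.606), with 1 WT library left that was assumed to vary like the others. The full-length Axin2-201 overlapped between genotypes in normalized counts, at 471, 586 and 690 in WT and 723, 647 and 655 in *Gde2*KO.

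At 19 months the direction was the opposite. Axin2-203 held 17.4, 26.3 and 17.3% in WT and 6.42, 15.2 and 15.1% in *Gde2*KO, a difference of −8.10 points without overlap. Axin2-201 held 44.1, 46.6 and 51.6% in WT and 57.6, 58.0 and 52.8% in *Gde2*KO, a difference of 8.67 points. *Axin2* did not pass the 19-month usage test (adjusted p = 0.642), in which 0.171% of 12253 genes and none of the 10 members were called. By limma diffSplice, 2 members (*Axin1* and *Axin2*) had an unadjusted p under 0.05 at that age, as did 5.10% of all genes. In *Gde2*KO library A, Axin2-203 rested on 3.9 reads. A test of whether the usage difference itself changed with age, added after these shares had been seen, gave an adjusted p of 0.341 for *Axin2*. Of 12304 genes 1.58% passed this test, and none of the members did, with an unadjusted p under 0.05 for 2 of them (*Apc* and *Axin2*) and for 8.57% of all genes. Axin2-203 and Ctnnb1-215 were both higher in mean share in *Gde2*KO at 4 months and lower at 19 months. So was Apc-203, a coding form of 16 exons (14.4 and −14.1 points). Apc-209, also coding, went the other way without overlap at either age (−3.03 and 3.12 points). Axin2-203 and Ctnnb1-215 lie at the 3′ end of their genes, and whether read coverage along the transcripts differed between the libraries was not tested.

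**Figure D3:**
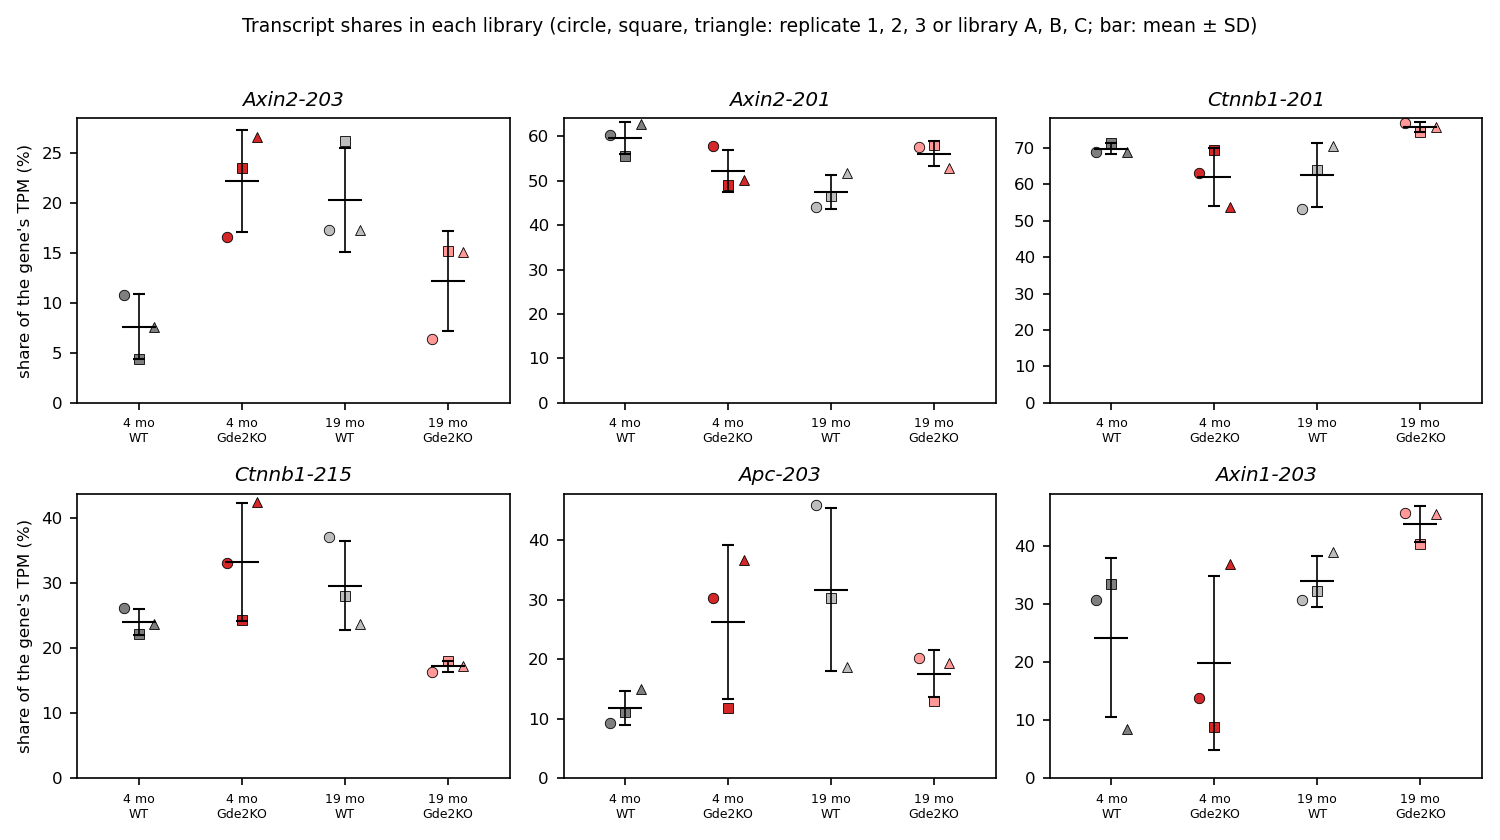
Share of a transcript in the TPM of its gene (y axis, percent, from 0) in each library of the 4 groups (x axis), with the mean and SD, for Axin2-203, Axin2-201, Ctnnb1-201, Ctnnb1-215, Apc-203 and Axin1-203. Axin2-203 is at 4.36 to 10.9% in 4-month WT and 16.6 to 26.6% in *Gde2*KO, and at 17.3 to 26.3% in 19-month WT and 6.42 to 15.2% in *Gde2*KO.

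*Apc*, the large scaffold that binds β-catenin directly, had 11615, 10350 and 12391 normalized counts in 4-month WT and 10938, 11837 and 10540 in *Gde2*KO (log2 difference −0.04 ± 0.13, SE; adjusted p = 0.884). At 19 months it had 9314, 9413 and 11230 in WT and 11973, 10852 and 11208 in *Gde2*KO, higher by 0.19 ± 0.08 (unadjusted p = 0.0393, adjusted p = 0.711). The groups overlapped through WT library C, and in TPM they narrowly did not, at 44.5, 45.6 and 59.4 against 89.0, 60.5 and 60.3. How many of all genes did not overlap in TPM was not counted. The highest 19-month *Apc* value in TPM was in *Gde2*KO library A, the library of lowest depth. Without both libraries of low depth the difference in normalized counts was 0.10.

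Of the 9 *Apc* transcripts, Apc-202 was the most abundant, at 52.1 ± 2.92% in 4-month WT and 46.8 ± 4.48% in *Gde2*KO (SD, n = 3). Apc-203, which differs from it by 468 bases that it lacks and 3 that it adds, held 9.30, 11.2 and 15% in 4-month WT and 30.3, 11.7 and 36.6% in *Gde2*KO. It held 46.0, 30.4 and 18.8% in 19-month WT and 20.2, 13.0 and 19.4% in *Gde2*KO. Neither difference, 14.4 and −14.1 points, passed the usage test (adjusted p = 0.451 and 0.979), and the spread within a group was as wide as the difference. With 1 library left out, the 19-month difference ran from −20.6 to −6.99 points. Without 4-month *Gde2*KO replicate 2, in which Apc-203 was at the WT level, the 4-month test passed (21.6 points, adjusted p = 0.00282), and the genes called for usage then numbered 659 and not 122.

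*Axin1*, the constitutive counterpart of *Axin2*, ranged from 655 to 992 normalized counts over the 12 libraries. It had 894, 857 and 787 normalized counts in 4-month WT and 950, 826 and 992 in *Gde2*KO (0.12 ± 0.13, SE; adjusted p = 0.658). It had 862, 854 and 815 in 19-month WT and 655, 876 and 842 in *Gde2*KO (−0.10 ± 0.11, adjusted p = 0.805). The value of 655 belonged to *Gde2*KO library A, where it stood for 79 reads, and without both libraries of low depth the difference was 0.04. Among its coding transcripts, Axin1-201 held the largest mean share (47.2 ± 13.9% in 4-month WT). Axin1-203 held 30.7, 32.2 and 38.9% in 19-month WT and 45.6, 40.2 and 45.5% in *Gde2*KO, values that did not overlap. The usage test did not pass (9.88 points, unadjusted p = 0.00116, adjusted p = 0.192). Without WT library C, the WT library of highest share, the shift was 12.4 points and passed (adjusted p = 0.000366), and 58 genes were called for usage and not 21. Axin1-202 and Axin1-203 lie wholly within the exons of Axin1-201, so the split rests on splice junctions and on the 944 and 887 bases they lack.

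GSK3 phosphorylates β-catenin after casein kinase 1α has primed it, and *Gsk3a* and *Gsk3b* encode its forms. *Gsk3a* had 6007, 6156 and 6349 normalized counts in 4-month WT and 7346, 6260 and 7875 in *Gde2*KO (0.21 ± 0.13, SE; adjusted p = 0.511), overlapping only through *Gde2*KO replicate 2. At 19 months it had 7636, 7716 and 7169 in WT and 7033, 7846 and 7514 in *Gde2*KO (−0.01 ± 0.06, adjusted p = 0.973). *Gsk3b* had 6511, 6772 and 7726 in 4-month WT and 7773, 7894 and 4947 in *Gde2*KO (−0.06 ± 0.20, adjusted p = 0.901). *Gde2*KO replicate 3 was the lowest of all 12 libraries for *Gsk3b* and the highest for *Gsk3a*, and without it the *Gsk3b* difference was 0.17. At 19 months *Gsk3b* had 6006, 6197 and 6627 in WT and 7102, 6463 and 7011 in *Gde2*KO, higher by 0.13 ± 0.06 (unadjusted p = 0.0582, adjusted p = 0.711).

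*Csnk1a1*, the priming kinase, had 12472, 11568 and 8728 normalized counts in 4-month WT and 10027, 9106 and 10119 in *Gde2*KO (−0.15 ± 0.16, SE; adjusted p = 0.660). Its 2 highest values were those of WT replicates 1 and 2, and the difference without them was 0.16 in the other direction. At 19 months it had 8684, 8404 and 9094 in WT and 9678, 8380 and 9175 in *Gde2*KO (0.06 ± 0.06, adjusted p = 0.809).

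Shares of the kinase transcripts differed by less than 6 points between genotypes. Gsk3a-201 held 94.2 to 95.2% of *Gsk3a* TPM in the group means, and the largest shift, in Gsk3a-203, was under 1 point (−0.21 at 4 months, −0.66 at 19 months). Gsk3b-201 held 77.5 ± 2.31% in 4-month WT and 83.2 ± 2.62% in *Gde2*KO, without overlap (5.74 points, adjusted p = 0.733), and 80.8 ± 1.79 and 79.9 ± 3.03% at 19 months, where Gsk3b-203 differed most (−1.88 points). Csnk1a1-204 held 38.5 ± 1.95 and 41.7 ± 2.23% at 4 months and 46.3 ± 5.01 and 40.5 ± 2.67% at 19 months, where the groups did not overlap (adjusted p = 0.640 and 0.998).

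The TCF/LEF genes were measured with few reads, above all at 19 months. *Tcf7l1* encodes a factor best known as a repressor in the absence of Wnt. It had 110, 117 and 155 normalized counts in 4-month WT and 132, 119 and 97.3 in *Gde2*KO (−0.13 ± 0.22, SE; adjusted p = 0.779). At 19 months it had 130, 113 and 153 in WT and 232, 164 and 125 in *Gde2*KO (0.36 ± 0.24, adjusted p = 0.740), where the value of 232 stood for 28 reads. Without both libraries of low depth the 19-month difference was 0.13. *Tcf7l2*, which acts as activator or repressor, had 134, 162 and 204 in 4-month WT and 208, 147 and 167 in *Gde2*KO (0.07 ± 0.22, adjusted p = 0.887). It had 162, 145 and 141 in 19-month WT and 219, 131 and 154 in *Gde2*KO (0.14 ± 0.21, adjusted p = 0.861), and −0.01 without the libraries of low depth.

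*Lef1* is itself a target of the pathway. It had 132, 153 and 180 normalized counts in 4-month WT and 227, 201 and 152 in *Gde2*KO, which overlapped (0.31 ± 0.21, SE; adjusted p = 0.527). Without WT replicates 1 and 2 the difference was 0.0854. At 19 months it had 205, 217 and 200 in WT and 164, 191 and 174 in *Gde2*KO, all lower without overlap (−0.24 ± 0.13, adjusted p = 0.734; exact permutation p = 0.1), as were 8.32% of all genes. At 4 months 4.26% of all genes were lower without overlap, and no member was. In TPM the 19-month sign turned to 0.32, and *Gde2*KO library A stood at 9.56 against 2.79 to 3.62 in the others. *Lef1* is also known from endothelial cells of brain vessels. All 8 endothelial markers were above 0 at 4 months (median 0.29) and 2 of 8 at 19 months (median −0.17), and none of them was called or at 0 in any library. Their summed normalized counts were 7561 to 9468 in 4-month WT, 9378 to 11586 in *Gde2*KO, 9397 to 10851 in 19-month WT and 7738 to 9763 in *Gde2*KO. The part of these markers in the *Lef1* values was not tested. Other lists were also mostly above 0 at 4 months: microglia 8 of 8 (median 0.40), oligodendrocytes 8 of 8 (0.27), neurons 7 of 8 (0.27) and thalamus 8 of 12 (0.36). Astrocyte markers were above 0 in 3 of 7 (−0.09) and hippocampal markers in 1 of 11 (−1.78), beside 63.2% of all genes.

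That high TPM came from 1 short transcript. Lef1-208, a retained-intron model of 345 bases, held 75.2% of *Lef1* TPM in *Gde2*KO library A on 2.3 estimated reads and was listed at 0 in the other 11 libraries. The coding Lef1-201 held the largest share elsewhere, 84.4 ± 6.20% in 19-month WT and 70.5 ± 11.4% in 4-month WT, and Lef1-203 differed most at 4 months (4.22 points). Lef1-203 rested on 2.5 and 18.1 reads in 2 *Gde2*KO libraries and was too low for the usage test, in which the other *Lef1* transcripts did not pass (adjusted p = 0.956). *Tcf7l1* was mostly Tcf7l1-201 (88.6 ± 7.24% in 4-month WT). Its largest shift at 4 months, in Tcf7l1-204 (2.64 points), rested on 0.3 reads in 1 WT and 1.6 in 1 *Gde2*KO library and was not tested. That at 19 months, in Tcf7l1-202 (−4.69 points), did not pass (adjusted p = 0.995). *Tcf7l2* was spread over 22 transcripts, 7 of which had a mean share of 5% or more. Tcf7l2-209 was the leading one and was lower at 19 months, at 32.7, 40.3 and 33.3% in WT and 14.5, 22.5 and 29.5% in *Gde2*KO, without overlap (−13.3 points; *Tcf7l2* adjusted p = 1). At 4 months Tcf7l2-208 differed most (−6.65 points, adjusted p = 0.662).

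**Figure D4:**
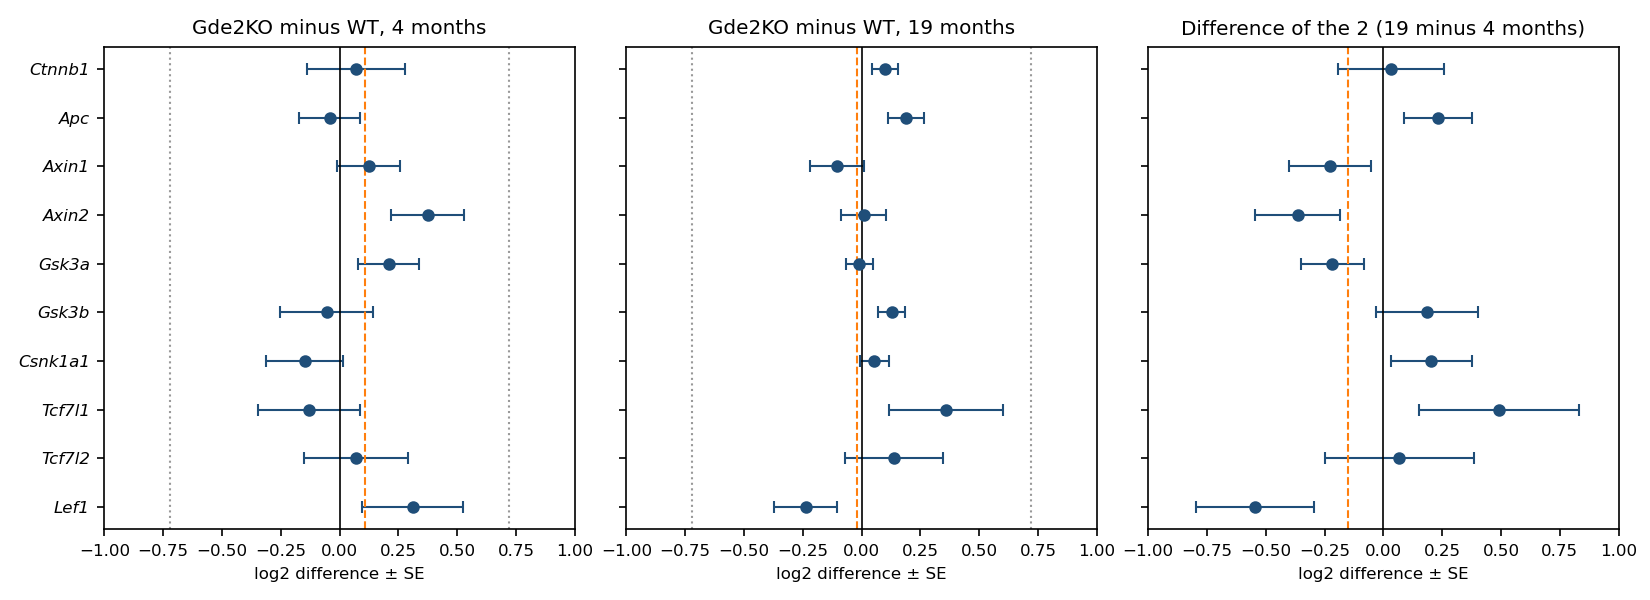
Log2 difference of *Gde2*KO minus WT (x axis) with its SE for each of the 10 genes (y axis) at 4 months and 19 months, and the difference between both ages; the dashed line is the median of all genes tested and the dotted lines are the fold-change limit of 0.72. All members lie inside the limit, from −0.15 (*Csnk1a1*) to 0.37 (*Axin2*) at 4 months and from −0.24 (*Lef1*) to 0.36 (*Tcf7l1*) at 19 months.

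Some of the 4-month differences moved when WT replicates 1 and 2 were left out, which leaves a single WT library. They were then −0.43 for *Tcf7l1*, −0.24 for *Tcf7l2*, −0.20 for *Gsk3b*, −0.16 for *Apc*, 0.23 for *Axin1* and 0.17 for *Gsk3a*. At 19 months without both libraries of low depth, *Ctnnb1* was at 0.0534, *Axin2* at 0.0651, *Gsk3b* at 0.0710, *Csnk1a1* at 0.0044 and *Lef1* at −0.19. None of these values passed the call.

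Whether the genotype difference itself changed with age was tested in 1 fit of all 12 libraries. None of the 10 members passed at an adjusted p under 0.1, which 0.048% of 18731 genes did, and 1 of 10 had an unadjusted p under 0.05 by limma, beside 12.9% of all genes. That member was *Lef1*, with a change of −0.55 ± 0.25 (SE) from 4 to 19 months (unadjusted p = 0.0492, adjusted p = 0.387), which became 0.11 in TPM and −0.32 without WT replicates 1 and 2. The change was 0.49 ± 0.34 for *Tcf7l1* (adjusted p = 0.506; 0.79 without these replicates) and −0.37 ± 0.18 for *Axin2* (adjusted p = 0.402; −0.12 without them). The median of all genes in this comparison was −0.15, and −0.02 after median-ratio rescaling.

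Age was confounded with sequencing depth, and cannot be told apart from whatever else differed between both sets of libraries. Between 19 and 4 months, 14% of 18731 genes passed the adjusted p and the fold-change limit, 846 higher and 1777 lower, or 1084 and 1364 after median-ratio rescaling. None of the members passed both. The adjusted p alone was passed by 3 of 10 members and by 47.3% of all genes. These were *Ctnnb1* (lower, above), *Gsk3a* (0.17 ± 0.07 higher, SE; adjusted p = 0.0580) and *Csnk1a1* (−0.21 ± 0.09, adjusted p = 0.0797). Without 4-month WT replicates 1 and 2, *Gsk3a* (0.15, adjusted p = 0.225) and *Csnk1a1* (−0.0524, adjusted p = 0.651) no longer passed. After rescaling, 4 members passed it. Levels of 4-month *Ctnnb1* were above every 19-month library in all 6 cases. How many of all genes separated by age in this way was not counted.

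Other parts of the pathway were read from hand-written lists. The lists held 84 genes, some of them on more than 1 list. None of 19 partners and degradation factors of the destruction complex, 13 genes that relay the signal at the membrane, 24 nuclear cofactors and co-repressors, 9 genes of adherens junctions or 21 canonical Wnt targets was called at either age or for the interaction. At an unadjusted p under 0.05, limma gave 11 of these 84 genes at each age (13.1%), beside 10.6% of all genes at 4 months and 6.91% at 19 months. *Axin2* and *Lef1* belong to the members and are not counted again.

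Near the destruction complex, the smallest unadjusted p-values at 4 months were those of *Ppp2cb* (log2 difference 0.42 ± 0.16, SE), *Csnk1e* (0.34 ± 0.14) and *Ppp2ca* (0.35 ± 0.19). *Ppp2ca* and *Ppp2cb* encode catalytic subunits of protein phosphatase 2A, which removes phosphates within the complex. At 19 months their differences were −0.11 ± 0.04 and −0.17 ± 0.06, and that of *Skp1a* was −0.13 ± 0.05; it encodes a component of the ubiquitin ligase that takes phosphorylated β-catenin. Among the relay genes, *Dact3* (0.34 ± 0.16), *Nkd2* (−1.14 ± 0.54) and *Dvl1* (0.30 ± 0.15), which encodes a Dishevelled protein, led at 4 months. At 19 months *Csnk1g2* (−0.10 ± 0.07), *Csnk1g3* (−0.07 ± 0.06) and *Csnk1g1* (−0.09 ± 0.08), the casein kinases of Wnt receptors, led. The adjusted p was 0.463 to 0.485 for the genes named at 4 months and 0.664 to 0.766 at 19 months. The list medians were 0.08 and 0.06 at 4 months beside 0.11 for all genes, and 0.01 and −0.06 at 19 months beside −0.02.

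In the nucleus, *Nlk* (0.73 ± 0.27, SE), a kinase that acts on TCF/LEF factors, *Bcl9* (−0.36 ± 0.15), a β-catenin coactivator, and *Tbl1x* (0.36 ± 0.15) had the smallest unadjusted p at 4 months (adjusted p = 0.463 for each). *Ep300* (0.22 ± 0.07), a histone acetyltransferase that coactivates with β-catenin, *Hipk2* (0.32 ± 0.11) and the co-repressor *Tle1* (0.24 ± 0.11) had the smallest at 19 months (adjusted p = 0.620, 0.668 and 0.714). Of the junction genes, 7 of 9 were above 0 at each age, with medians of 0.25 and 0.08. *Ctnna2* (0.42 ± 0.17), *Jup* (0.47 ± 0.20) and *Ctnna1* (0.34 ± 0.15), encoding α-catenins and plakoglobin, led at 4 months, and the cadherin *Cdh11* (0.31 ± 0.09), *Jup* (0.15 ± 0.07) and *Cdh2* (0.11 ± 0.07) at 19 months (adjusted p = 0.616 to 0.734).

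Wnt targets divided at 4 months. Of 21 tested, 11 were above 0 and their median was 0.02, beside 0.11 for all genes; *Fgf20* was below the filter. *Ccn4* (1.32 ± 0.47, SE), *Prox1* (−1.59 ± 0.59) and *Myc* (−0.39 ± 0.16) had the smallest unadjusted p (adjusted p = 0.463 for each). *Prox1* is also on the hippocampal marker list, whose median at 4 months was −1.78. At 19 months 16 of 21 targets were above 0, with a median of 0.16 beside −0.02, led by *Jun* (0.25 ± 0.09), *Apcdd1* (0.31 ± 0.11) and *Myc* (0.37 ± 0.15; adjusted p = 0.668, 0.685 and 0.711). At the same age, 10 of 10 striatal markers (median 0.80) and 10 of 11 hippocampal markers (median 0.41, 1 called) were above 0, as were 8 of 8 oligodendrocyte markers (median 0.26), 8 of 9 markers of their precursors (0.19) and 6 of 7 astrocyte markers (0.12). Of the other lists, 4 of 8 neuronal, 4 of 8 microglial, 4 of 7 choroid plexus, 5 of 12 thalamic and 4 of 9 cortical layer markers were above 0 (medians −0.11 to 0.06). Endothelial markers were above 0 in 2 of 8 (median −0.17) and blood markers in 0 of 5 (−0.36). The part of tissue composition in the target values was not tested. With age, *Skp1a*, *Nkd2*, *Prox1* and *Jun* fell and *Sox17*, *Tle2* and *Ccn4* rose (log2 differences −0.75, −0.85, −1.09, −0.99, 0.86, 0.80 and 0.74, all called). These were 7 of the 84 list genes, beside 14% of all 18731 genes tested.

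**Figure D5:**
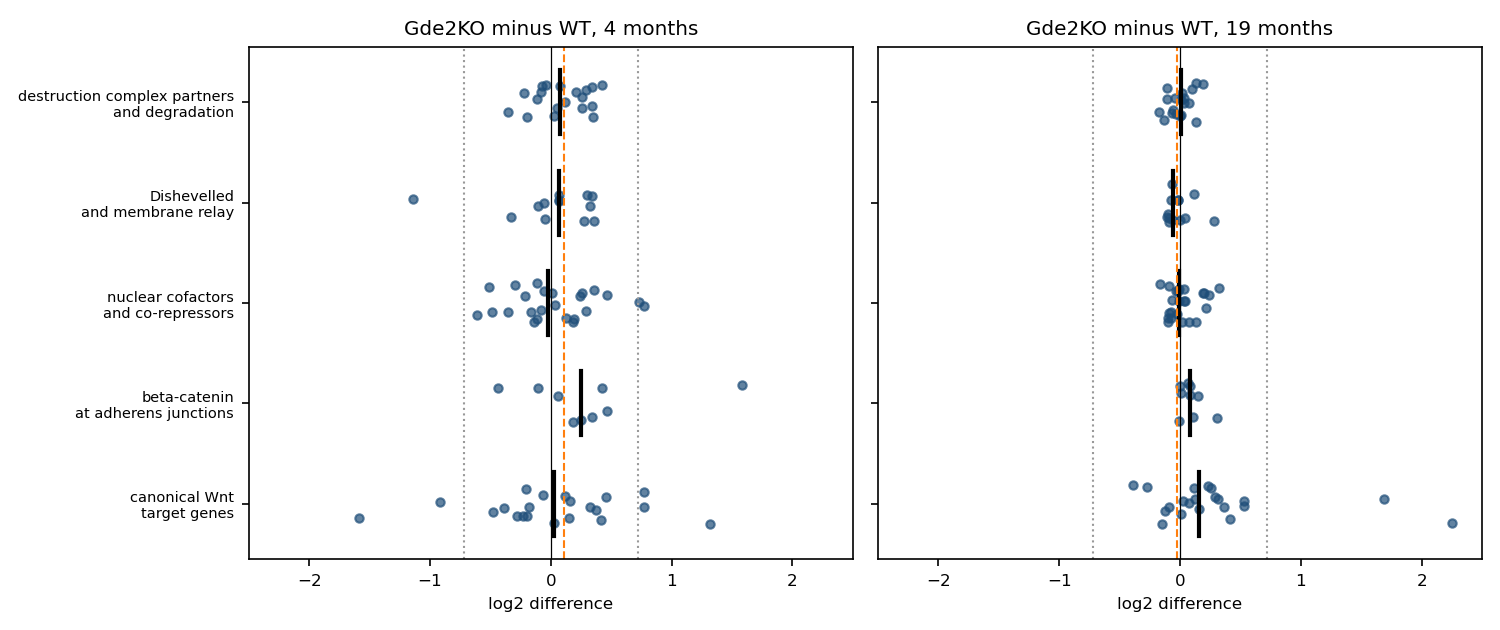
Log2 difference of *Gde2*KO minus WT (x axis) for each gene of the pathway and target lists (y axis) at 4 months and 19 months; black bars are list medians, the dashed line is the median of all genes and the dotted lines are the fold-change limit. No gene was called, and the target list has a median of 0.02 at 4 months and 0.16 at 19 months.

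The core sequence that TCF/LEF factors bind was looked for in the promoters RefSeq gives on GRCm38.p6, from 250 bases before to 50 after a start. CTTTGAT or CTTTGAA, on either strand, occurred in 1 of 12 promoters of 7 members, that of *Gsk3a*, and in 8.65% of 32851 promoters of that length. Members on chromosome 18, *Apc* and *Csnk1a1*, were left out of this search, and no promoter of *Axin1* was among those searched. The 32851 promoters were not filtered by chromosome.

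The genes whose profile was most like that of each member were found by Pearson correlation of log2 values over the 12 libraries, centered within each age, among 12973 genes; the values share library depth and tissue makeup. *Ctnnb1* was most like *Ugdh*, *Sec61a1* and *Dbnl* (r = 0.96, 0.96 and 0.95), and *Apc* like *Pcdhgb2*, *Kctd16* and *Ankub1* (0.92, 0.91 and 0.84). *Axin1* was most like *Letm1*, *Mttp* and *Mogs* (0.97, 0.96 and 0.96), and *Axin2* like *Cry1*, *L3mbtl3* and *Tbl1x* (0.95, 0.95 and 0.94), the last of which is on the cofactor list. *Gsk3a* went with *Pdgfa*, *Ppp2r5b* and *Retreg2* (0.98, 0.97 and 0.97), *Gsk3b* with *Bcr*, *Tet3* and *Slc1a2* (0.97, 0.94 and 0.93), and *Csnk1a1* with *Reps2*, *Grp* and *Nckap1* (0.98, 0.98 and 0.97). Of the TCF/LEF genes, *Tcf7l1* went with *Sox6*, *Erbb3* and *Plekhg3* (0.84, 0.84 and 0.83), *Tcf7l2* with *Nhs* and *Arrdc3* (0.89 and 0.89), and *Lef1* with *Sp2*, *Zmat3* and *Bcan* (0.91, 0.88 and 0.88). Among the members themselves, r ran from −0.77 (*Axin1* and *Tcf7l1*) to 0.70 (*Apc* and *Tcf7l1*).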

How the data were processed

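Genotype and age are in the sample titles, which number the replicates. The 4-month columns carry these numbers; the 19-month columns give genotype, age and an identifier of their own, so their libraries are lettered A to C in column order, and the identifiers of *Gde2*KO libraries B and C begin alike. Kallisto pseudoalignment on GRCm38 was run by the authors, who deposited Sleuth output as 2 tables of signal values for 118489 transcripts, normalized counts and TPM divided by a size factor. The submitters' processing notes also name bcl2fastq 2.17, Trimmomatic 0.36 and STAR 2.5.2b.

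Gene values are sums over transcripts; 1673 transcripts without a gene (0.541 to 0.605% of a library) were left out. The commonest low value of a library was taken as 1 read. Genes with 5 normalized counts or more in 47% of libraries were tested with limma 3.58.1 in R 4.3.3 on log2(value + 0.5) with a trended variance prior, each age alone, and all 4 groups together for interaction and age. Differences on this scale understate those of low genes. Calls needed a Benjamini-Hochberg adjusted p under 0.1 and a natural-log fold change beyond 0.5 (0.72 in log2); the interaction needed only the former. diffSplice compared usage over transcripts whose mean reached 5 normalized counts. Exact permutation tests were two-sided. Statistics were tested on simulated data. Positions are from GENCODE vM21 on GRCm38. The study gives 3 animals per genotype for the 19-month RNA and an n of 3 at 4 months, so p-values measure the spread between animals at 19 months and between libraries at 4.

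The members and lists were chosen with earlier results of these data known. Named genes are all members, *Gdpd5*, called list genes or else the 3 of smallest unadjusted p per list and age (age calls included), the 3 genes most like each member (mean of 100 normalized counts or more; 1 of them is not reported here), and per member the transcript of highest share and that of largest shift per age. Same-numbered 4-month libraries did not deviate together (r = 0.06, 0.01 and −0.05), so no block was used. Alternatives were pseudocounts, filters, TPM, rescaling, variance models, a block, thresholds of usage and libraries left out. Python 3.11.15, pandas 2.3.3 and matplotlib 3.10.9 made tables and plots.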

Additional observations from a re-analysis of the deposited data

How the results depend on the processing

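No alternative called a member for its level at either age or for the interaction, and of 750 alternative values of member differences 707 kept their sign and 43 did not. Leaving out 1 library leaves 2 in its group, and 1 library is assumed to vary like the others where a pair was left out.

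Of the counts of genes called, that at 4 months (24) was 12 with no filter, 12 without the trend, 14 without WT replicates 1 and 2, and 5 (without *Gde2*KO replicate 3) to 1510 (without WT replicate 3) with 1 library left out. At 19 months (18) it was 7 without the trend, 34 without both libraries of low depth and 9 (without WT library A) to 45 (without *Gde2*KO library B). The interaction (9) gave 6 to 2029 with 1 library left out, the highest without 4-month WT replicate 3. Age (2623) gave 1311 at a mean of 50 normalized counts or more, 1745 in TPM, 1720 without WT replicates 1 and 2, and 2160 to 2750 with 1 library left out. Usage at 4 months (122) gave 262 by Simes, 324 with no minimum shift and 83 to 659 with 1 library left out; at 19 months (21) it gave 47, 40 and 22 to 59, and 122 without both libraries of low depth. The usage interaction (195) gave 35 without WT replicates 1 and 2, 369 without low depth and 70 to 347 with 1 left out. Members called for usage were 1 to 2 at 4 months (*Apc* added without *Gde2*KO replicate 2) and 0 to 1 at 19 months (*Axin1* without WT library C). Without WT replicates 1 and 2, which leaves 1 WT library, the member called at 4 months was *Lef1* and not *Axin2*. The *Axin2* usage call at 4 months had an adjusted p of 0.00875 to 0.0720 with 1 library left out and 0.00120 to 0.606 over all alternatives.

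The labels do not say whether equal replicate numbers pair the 4-month libraries, and 19-month columns carry no replicate numbers. With a replicate block, 21 genes were called at 4 months, 97 for usage, and *Axin2* usage had an adjusted p of 0.0342.

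Signs turned as follows, none past the threshold; the cause was not tested. In TPM: *Axin1* −0.016 at 4 months; *Ctnnb1* −0.063, *Axin2* −0.10 and *Lef1* 0.32 at 19 months; *Ctnnb1* −0.18 and *Lef1* 0.11 for the interaction. With rescaling: *Ctnnb1* −0.053 and *Tcf7l2* −0.052 at 4 months, *Gsk3a* 0.0049 at 19 months, *Apc* 0.022 and *Gsk3b* 0.043 for age. Without WT replicates 1 and 2: *Csnk1a1* 0.16 and *Tcf7l2* −0.24 at 4 months, *Ctnnb1* −0.25 and *Csnk1a1* −0.10 for the interaction, and shares of *Axin1* −5.11 and *Gsk3a* 0.32 points. Without low depth: *Axin1* 0.041, *Gsk3a* 0.046 and *Tcf7l2* −0.012 at 19 months, *Ctnnb1* −0.015 and *Tcf7l2* −0.081 for the interaction, and the *Gsk3a* share 0.0855 points.

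With 1 library left out, ranges that crossed 0 at 4 months were *Apc* −0.11 to 0.017, *Ctnnb1* −0.072 to 0.24, *Gsk3b* −0.17 to 0.17, *Tcf7l1* −0.23 to 0.019 and *Tcf7l2* −0.077 to 0.22, and in share *Gsk3a* −0.48 to 0.11 and *Tcf7l1* −0.74 to 4.34 points. At 19 months they were *Axin1* −0.18 to 0.026, *Axin2* −0.043 to 0.074, *Gsk3a* −0.046 to 0.033 and *Tcf7l2* −0.072 to 0.30, and the *Gsk3a* share −1.11 to 0.0053 points. For the interaction they were *Ctnnb1* −0.14 to 0.17, *Gsk3b* −0.038 to 0.30 and *Tcf7l2* −0.14 to 0.23.

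Depth limits the TCF/LEF genes most: 1 read in *Gde2*KO library A is worth 8.29 normalized counts. Kallisto divides reads among transcripts that share nearly all bases, so shares of Axin2-203, Ctnnb1-215, Apc-203 and Axin1-203 carry an uncertainty that these tables do not give.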
